A study of Mus musculus with 5 samples.

Results

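The 6 complement genes *C1ra*, *C1s1*, *C4b*, *C3*, *Cfb* and *Serping1* and the pentraxin gene *Ptx3* were followed at the level of their transcripts in cultured cardiac fibroblasts (CF) of the mouse. Members were the gene names in the count tables equal to these 7 symbols, 7 of 20365 names, and each gene was represented by the 3′ UTR interval with its highest mean level in the labeled libraries. The data were made by SLAMseq, in which the uridine analog 4-thiouridine (S4U) enters RNA made while it is present, is alkylated, and is then read as a C where the genome has a T (T>C conversion). CF came from hearts of healthy adult male C57Bl/6J wildtype mice and were grown to confluency, and 3 libraries were made after 12 h with 0.1 mM S4U (labeled) and 2 after parallel culture without S4U (unlabeled). The study names 3 CF preparations for this assay, and the labels do not say what a replicate number marks, so p-values here measure the spread between these libraries. The cells had been depleted of CD31+ and CD45+ cells with magnetic beads and were studied in culture, with no infarcted hearts in these libraries.

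Complement is a cascade of plasma proteins made in the liver and also by local cells such as fibroblasts. In the classical pathway C1q recognizes a target and its partner proteases C1r and C1s cleave C4 and C2, in the alternative pathway factor B joins C3b, and both routes meet in the cleavage of C3, while C1 inhibitor shuts down C1r and C1s. PTX3 is a secreted long pentraxin that is induced by inflammatory signals and binds C1q. The T>C conversion rate, the fraction of covered T positions read as C, is higher when more of a transcript pool was made during labeling.

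Only T positions can carry a label, so the end of a transcript sets what can be read from it. The last 30 bases of the intervals of 4 members are shown, those of the 3 shortest intervals and of the longest one, with T in capitals and the rest in lower case, 5′ to 3′ on the transcript strand in GRCm39.
C3, chr17:57510967-57510996, minus strand: TaaTaaagcTTcagTTgTaTTTcacccaTc
C4b, chr17:34947354-34947383, minus strand: aaaTaaaagaaaagcTTTTTgacagccaaa
Cfb, chr17:35075350-35075379, minus strand: gaggacagaTTaaagcagTTacaaTaacaa
Ptx3, chr3:66133198-66133227, plus strand: cTacTgTaaaTaaaaTgTTTTaTaaagcTa
These windows hold 11 T in *C3*, 6 in *C4b*, 5 in *Cfb* and 11 in *Ptx3*. The hexamer AATAAA, searched on the transcript strand only, lay in the last 30 bases of *C1ra*, *C4b*, *C3* and *Ptx3* and not in those of *C1s1*, *Cfb* and *Serping1*. It was present in the last 30 bases of 54.8% of 13750 intervals, counting 1 interval for each gene with labeled reads.

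The whole intervals differed widely. *Ptx3* (ENSMUSG00000027832.6, chr3:66132627-66133227) was read over 601 bases with 210 T positions, and *C1s1* (ENSMUSG00000038521.19, chr6:124507303-124507902) over 600 bases with 179. *C1ra* (ENSMUSG00000055172.12, chr6:124499940-124500399) had 460 bases with 128 T, *Serping1* (ENSMUSG00000023224.14, chr2:84595704-84595917) 214 bases with 59 T, and *Cfb* (ENSMUSG00000090231.12, chr17:35075350-35075548) 199 bases with 45 T. The shortest were *C4b* (ENSMUSG00000073418.6, chr17:34947354-34947459), with 106 bases and 26 T, and *C3* (ENSMUSG00000024164.17, chr17:57510967-57511012), with 46 bases and 13 T. T made up 34.9% of the *Ptx3* interval and from 22.6% (*Cfb*) to 29.8% (*C1s1*) of the others. All bases of *C1ra*, *C1s1*, *C4b*, *C3* and *Cfb* and all but 1 of *Serping1* and *Ptx3* were annotated as UTR in at least one transcript, and part of the *Cfb* interval is coding in other *Cfb* transcripts.

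Some of these intervals are not unique to their gene, which limits what their reads stand for. *C1s1* was 96.7% identical over 601 aligned bases to the neighboring *C1s2*, to which 1 read was assigned over all 5 libraries. *C4b* was 96.2% identical over 105 bases to the location of *C4a*, which was not analysed here. A stretch of 260 bases of *C1ra* matched 237 places in the genome, at best with 96.5% identity. The *Cfb* interval overlaps exons of *Gm20547* on its own strand and of *Nelfe* on the other, and *C1s1* overlaps an exon of the antisense lncRNA *Gm16567*. *C3* lies within an intron of the antisense lncRNA *Gm65552* and *Ptx3* within an intron of the antisense gene *Veph1*, and reads of such partners were not separated here. For *C3*, *Cfb*, *Serping1* and *Ptx3* no second place in the genome matched.

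The libraries held between 506045 (labeled replicate 3) and 1843033 (unlabeled replicate 1) reads on 1 interval per gene, so labeled replicate 3 gives the least precise values. Over all intervals the conversion rate was 0.0353 to 0.0358 in the labeled and 0.000652 to 0.00111 in the unlabeled libraries. All 8 fibroblast markers had reads in every library, and their summed level, in CPM (read counts scaled to the reads counted on 1 interval per gene), was 38588 to 42093 in labeled and 31235 to 34410 in unlabeled libraries, without overlap. Among single genes tested for reads, 8.2% had every labeled library above both unlabeled ones. The markers differed, with labeled and unlabeled means of 13036 and 9222 CPM for *Col1a1* and 4916 and 4918 for *Dcn*. *Pdgfra*, with 521 and 781 CPM, was the 1 of 8 with a log2 fold change below 0. None of the 8 passed the test of reads given below. Of the other cell types, 6 of 9 immune markers had reads in every library and their sum was 60.9 to 97.9 CPM in labeled and 68.4 to 103 in unlabeled libraries, with *Cd3e* and *Cd79a* at 0. The 5 endothelial markers, all with reads in every library, summed to 106 to 185 CPM in labeled and 124 to 189 in unlabeled libraries, and the 5 mural markers, 3 of them with reads in every library, to 7.53 to 15.8 and 10.3 to 15.1. Epicardial markers, 1 of 8 with reads in every library, summed to 5.08 to 7.90 and 4.88 to 7.03 CPM with *Msln* and *Krt19* at 0, and cardiomyocyte markers, 1 of 5 with reads in every library, to 0.635 to 6.69 and 1.63 to 7.03 with *Myl2* and *Ryr2* at 0. The part of these markers in the values of the members was not tested.

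*Ptx3* stood apart from the 6 complement genes in its labeling. After 12 h with S4U its conversion rate was 0.0448 ± 0.00260 (SD, n = 3), and the complement genes ranged from 0.00251 (*C4b*) to 0.0102 (*Cfb*). In each of the 3 labeled libraries *Ptx3* lay above every one of the 6, by a difference in rate of at least 0.0287. Its rate was 4.45 to 5.36 times that of *Serping1* in single libraries, 3.87 to 8.52 times that of *C1ra*, 4.54 to 8.94 times that of *C3* and 5.55 to 12.1 times that of *C1s1*. For the shallow *Cfb* the ratio ran from 2.94 to 23.8, and for *C4b*, with 0 conversions in 1 library, none is given. These are differences between genes within the same libraries, and an exact two-sided permutation test that flips the sign of 3 paired differences cannot give a p below 0.25.

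**Figure D1:**
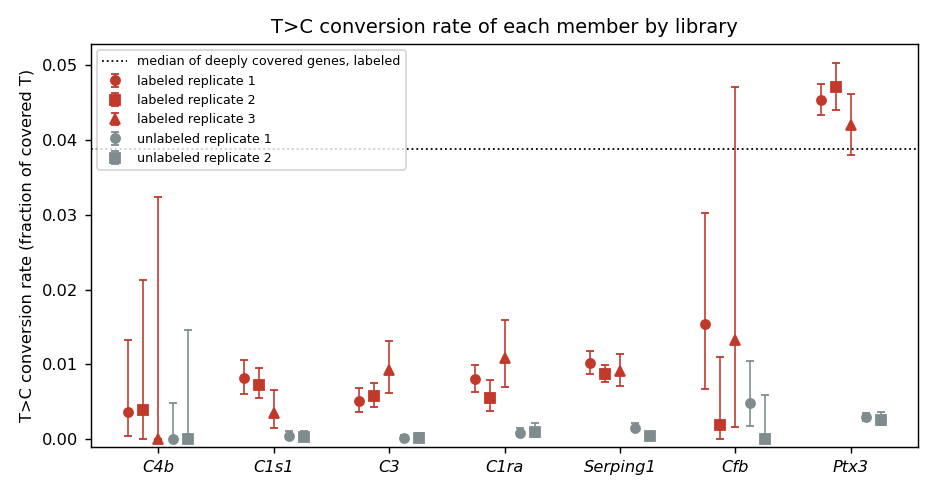
T>C conversion rate (fraction of covered T positions, vertical axis) of the 7 genes in each library, with labeled libraries in red and unlabeled ones in gray and bars for exact (Clopper-Pearson) 95% binomial intervals; the dotted line is the median labeled rate of 2123 deeply covered genes, 0.0388. The 3 labeled *Ptx3* points lie above this line and all labeled points of the 6 complement genes lie below it.

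Among the proteases of the classical pathway, *C1ra*, which encodes a form of C1r, had conversion rates of 0.00800, 0.00552 and 0.0108 in labeled replicates 1, 2 and 3, and 0.000895 and 0.000962 in the unlabeled libraries. *C1s1*, which encodes a form of C1s, had 0.00816, 0.00728 and 0.00347, against 0.000438 and 0.000373. In both genes every labeled library lay above both unlabeled libraries. The lowest labeled *C1s1* rate, of replicate 3, rested on 9 conversions in 2595 covered T, and the highest of *C1ra*, in the same library, on 25 in 2306. The means of 0.00812 ± 0.00266 for *C1ra* and 0.00630 ± 0.00249 for *C1s1* (SD, n = 3) differed by less than their spread, with *C1ra* higher in 1 of 3 libraries.

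The genes of both thioester-containing components were also little labeled. *C3*, the component on which all pathways converge, had rates of 0.00507, 0.00575 and 0.00923 in the labeled and 0.000145 and 0.000253 in the unlabeled libraries, a mean of 0.00669 ± 0.00223 (SD, n = 3) and no overlap between groups. Its 46-base interval left about 10 covered T per read, so more *C3* reads carried a conversion (49, 70 and 39 in labeled replicates 1 to 3) than conversions were counted on the interval itself (42, 53 and 30). The flag on a read thus also took in bases outside the interval. *C4b*, which encodes the C4 that C1s cleaves, had only 42, 18 and 7 labeled reads, and 2, 1 and 0 conversions in 543, 259 and 112 covered T. Pooled over the labeled libraries this was 3 of 914 covered T, a rate of 0.00328 with an exact 95% interval of 0.000677 to 0.00956, and the unlabeled libraries had 0 of 1015, which allows a rate of up to 0.00296. *C4b* lay below *C1s1*, *C3*, *C1ra* and *Serping1* in 3 of 3 libraries each, but the counting interval of its pooled rate took in the mean rates of all 4.

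*Cfb*, the gene of factor B, had the largest SD of the rate, although *C4b* varied more relative to its mean. Its labeled rates were 0.0154, 0.00198 and 0.0132, from 8, 1 and 2 conversions, and its unlabeled rates were 0.00483 and 0, so the groups overlapped. All 6 conversions of unlabeled replicate 1 lay in the last 6 bases of the interval (chr17:35075350-35075355), which hold a single T, that of the final taacaa in the sequence printed above. A deposited *Cfb* interval of 189 bases, which leaves out these 6 bases and 4 at the other end, had 0 conversions in 1137 covered T of unlabeled replicate 1 and 0 in 572 of unlabeled replicate 2, against 6 of 468, 1 of 468 and 2 of 137 in the labeled libraries. Its labeled mean of 0.00985 was close to the 0.0102 ± 0.00721 (SD, n = 3) of the full interval. The origin of the conversions at that position was not tested.

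*Serping1*, the gene of C1 inhibitor, was the deepest and most even of the complement genes. Its labeled rates were 0.0102, 0.00877 and 0.00908, a mean of 0.00934 ± 0.000740 (SD, n = 3), against 0.00154 and 0.000510 without S4U. Its smallest labeled library still had 8480 covered T. *Serping1* was above *C1s1* in 3 of 3 libraries and above *C3* and *C1ra* in 2 of 3 each.

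*Ptx3* had labeled rates of 0.0453, 0.0470 and 0.0419, from 1894, 845 and 402 conversions, and unlabeled rates of 0.00294 and 0.00265. Without S4U its rate was above that of 95.8% of the deeply covered genes, whose median was 0.000508. Unlabeled replicate 1 had 133 conversions and 133 reads with a conversion, and unlabeled replicate 2 had 36 of each. The ratio of these totals was thus 1, where it was 1.91, 1.96 and 1.79 in the labeled libraries. Subtracting the control rate left *Ptx3* at 0.0420.

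In order of the mean labeled rate the genes ran *C4b*, *C1s1*, *C3*, *C1ra*, *Serping1*, *Cfb* and *Ptx3*. Between neighbors, *C1s1* lay above *C4b* in 3 of 3 libraries and *Ptx3* above *Cfb* in 3 of 3. The steps from *C1s1* to *C3* (1 of 3 libraries), *C3* to *C1ra*, *C1ra* to *Serping1* and *Serping1* to *Cfb* (2 of 3 each) did not hold in every library, so the order inside the complement genes is not fixed by these data.

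The test of labeled against unlabeled libraries asked for each interval whether S4U raised its rate, by a beta-binomial likelihood ratio test with an unadjusted threshold of 0.05. Over all intervals 94.6% passed (18200 of 19240), and 6 of the 7 members did, a share that says little about the members. The p-values were 1.64e-08 for *Ptx3*, 3.90e-05 for *Serping1*, 7.77e-05 for *C3*, 0.000189 for *C1ra*, 0.000283 for *C1s1* and 0.0347 for *C4b*, each kept after Benjamini-Hochberg adjustment. *Cfb*, at 0.151, did not pass on its full interval and had 0.00652 on the interval of 189 bases, a choice made after seeing the data. The *C4b* call was lost without labeled replicate 1 (0.104) or 2 (0.0639) and without unlabeled replicate 1 (0.226) or 2 (0.0568). By limma on the conversion odds, the adjusted p of *Cfb* was 0.0876 without and 0.0277 with the replicate number as a block. In the beta-binomial test the *Cfb* call was gained without labeled replicate 2 (0.0237) or unlabeled replicate 1 (0.0392). This likelihood ratio test uses a chi-square approximation and called more unchanged intervals than its threshold states on simulated data, so p-values near the threshold such as that of *C4b* are too small, and an exact one-sided permutation of 3 against 2 libraries cannot go below 0.1.

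Against other genes of like depth, 5 members could be placed. Of 2123 genes with at least 1000 covered T in each labeled library, the median rate was 0.0388, the quartiles were 0.0343 and 0.0423, and the fifth percentile was 0.0159. Genes are counted by name here, and some names have the same values, such as *Pcdhga1* and *Pcdhga2* at 703.8 CPM and 0.0308. The 2123 are thus not all separate measurements. *C1s1* had a higher mean rate than 0.330% of these genes, *C3* than 0.518%, *C1ra* than 0.942% and *Serping1* than 1.37%. *Ptx3* was above 87.8%, and between 66.8% and 92.9% in single libraries. *C4b* and *Cfb* did not reach this depth. The intervals of *C1s1* and *Ptx3* had almost the same length, 600 and 601 bases, and lay below and above the quartiles of these genes.

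**Figure D2:**
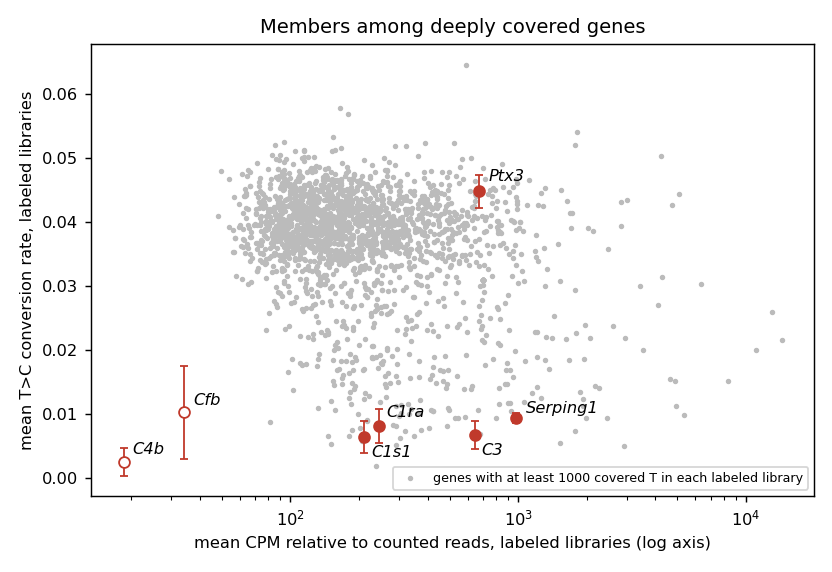
Mean T>C conversion rate (vertical axis, fraction of covered T) against mean transcript level (horizontal log axis, CPM relative to counted reads) in the labeled libraries, with 2123 deeply covered genes in gray and the 7 genes in red, open where covered less deeply and with bars for the SD of 3 libraries. *C3*, *Serping1* and *Ptx3* lie at like levels of 643 to 982 CPM and differ in rate.

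The letters of the intervals were also compared. The pentamer ATTTA, the core of AU-rich elements that many short-lived transcripts carry, was searched on the transcript strand and occurred at 2 places each in *Ptx3*, *C1ra* and *C1s1* and nowhere in *C3*, *C4b*, *Cfb* and *Serping1*. Windows of 30 bases around it are shown for *Ptx3* and *C1s1*, intervals of like length with different labeling, with the pentamer in capitals.
Ptx3, chr3:66133050-66133079, plus strand: tgagaaaaccatATTTAtaccacaaagtga
Ptx3, chr3:66133139-66133168, plus strand: ggtagttgtgtaATTTAtattgtgaaatgt
C1s1, chr6:124507629-124507658, minus strand: cgatcttccctcATTTAacctgcttgaaat
C1s1, chr6:124507602-124507631, minus strand: aattcctgaataATTTAcagcaaagcatgc
At least one pentamer was present in 54.7% of 1392 intervals within 20% of the length of *Ptx3*, in 55.0% of 1394 for *C1s1* and in 46.6% of 1230 for *C1ra*. For the members without one, the share among intervals of like length was 5.74% for *C3*, 17.5% for *C4b*, 25.8% for *Cfb* and 28.5% for *Serping1*. The count of 2 was thus the same in the most labeled member and in one of the least labeled.

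*Ptx3* stood apart per read as well. Across the 3 labeled libraries, 71.9%, 71.2% and 69.1% of *Ptx3* reads carried a T>C conversion, against 9.26% and 8.13% in the unlabeled libraries. The labeled mean was 70.7% ± 1.43 (SD, n = 3), and for the complement genes it was 12.2% ± 0.570 for *Serping1*, 11.3% ± 3.04 for *C1ra*, 9.49% ± 6.34 for *Cfb*, 8.70% ± 3.44 for *C1s1*, 8.56% ± 2.99 for *C3* and 3.44% ± 3.0 for *C4b* (SD, n = 3). A *Ptx3* read covered about 30 T positions of its interval and a *C3* read about 10, and since the flag on a read also took in bases outside the interval, the T positions behind these shares are not known for *C3*. *Ptx3* supplied 33.6%, 16.2% and 24.0% of the reads of the 7 genes in labeled replicates 1, 2 and 3, and 77.3%, 58.3% and 65.9% of their reads with a conversion. In unlabeled replicates 1 and 2 it supplied 26.9% and 13.5% of the reads, and 68.9% and 59.0% of those with a conversion. The large share of converted reads was thus not particular to the labeled libraries.

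**Figure D3:**
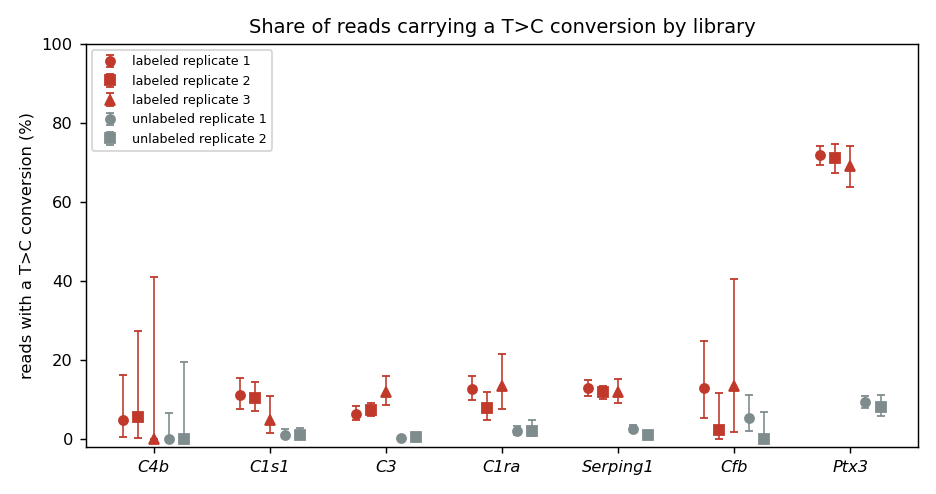
Percentage of reads with at least 1 T>C conversion (vertical axis) for the 7 genes in each library, with labeled libraries in red, unlabeled ones in gray and bars for exact (Clopper-Pearson) 95% binomial intervals. The labeled *Ptx3* points lie between 69.1% and 71.9%, apart from all others.

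The order of transcript levels differed from the order of rates. Levels are given as CPM relative to the reads counted on 1 interval per gene. These 3′ end libraries give reads from transcript ends, so levels were not divided by interval length. Reads that did not reach a short interval such as that of *C3* may be missing from its level, which was not tested. *Serping1* had 688, 1327 and 931 CPM with S4U and 720 and 1428 CPM without, in the order of the replicate numbers. *Ptx3* had 876, 508 and 640 against 780 and 445, and *C3* had 490, 794 and 644 against 719 and 798. In each of these genes the groups overlapped. By the labeled mean on this scale *Serping1* ranked 90th, *Ptx3* 203rd and *C3* 218th of all 20365 names.

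The classical proteases lay lower. *C1ra* had 315, 213 and 206 CPM in the labeled and 369 and 245 in the unlabeled libraries. For *C1s1* the levels were 178, 244 and 207 against 216 and 314. Both overlapped between groups, and the labeled means were 245 ± 61.3 and 210 ± 33.4 CPM (SD, n = 3). *Cfb* had 34.3, 38.5 and 29.6 against 61.3 and 52.2 CPM, and here every labeled library lay below both unlabeled ones. *C4b*, the scarcest, had 26.6, 15.1 and 13.8 against 29.8 and 17.1 CPM, with overlap.

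In order of level, *Serping1* lay above *Ptx3* in 2 of 3 labeled libraries, *Ptx3* above *C3* in 1 of 3 and *C1ra* above *C1s1* in 1 of 3, so these neighbors did not differ beyond their spread. *C3* lay above *C1ra*, *C1s1* above *Cfb* and *Cfb* above *C4b* in 3 of 3. Replicate 1 was the highest library of its group for *C1ra*, *C4b* and *Ptx3* in both groups, and replicate 2 for *C1s1*, *C3* and *Serping1*. In the CPM that the authors deposited, which is relative to a larger number of reads per library, the labeled means were 78.5 ± 41.5 for *Serping1*, 60.3 ± 49.0 for *Ptx3*, 51.5 ± 25.3 for *C3*, 22.3 ± 17.6 for *C1ra*, 17.1 ± 8.71 for *C1s1*, 2.94 ± 1.77 for *Cfb* and 1.76 ± 1.58 for *C4b* (SD, n = 3). The order was the same on both scales. It rested in part on labeled replicate 1, without which the deposited CPM means were 32.6 for *Ptx3*, below the 44.8 of *C3*, and 12.6 for *C1ra*, below the 13.9 of *C1s1*, and that of *C4b* was 0.878.

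**Figure D4:**
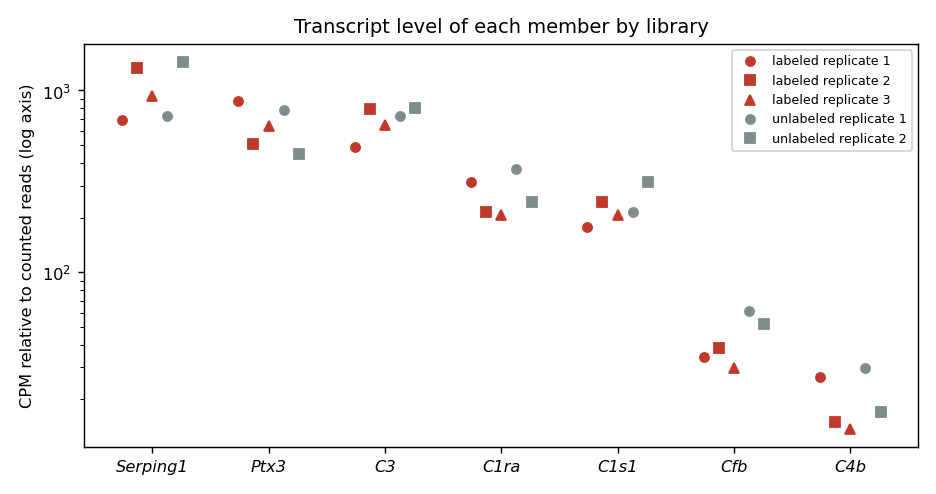
Transcript level (CPM relative to counted reads, vertical log axis) of the 7 genes in each library, ordered by the labeled mean, with labeled libraries in red and unlabeled ones in gray. Only the *Cfb* libraries separate by group, at 29.6 to 38.5 CPM with S4U and 52.2 to 61.3 CPM without.

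Reads of the labeled and unlabeled libraries were compared to ask whether 12 h with S4U went with other transcript levels. No member passed edgeR's quasi-likelihood test, in which 0% of 9807 genes were called at an adjusted p below 0.05. Before adjustment 279 genes had a higher and 306 a lower read count at p below 0.05. With the replicate number as a block, edgeR called 528 genes higher and 618 lower. DESeq2 called 13 genes higher and 5 lower, and no member was among the genes called in either. *Cfb* had the largest difference, a log2 fold change of -0.65 (SE 0.28, adjusted p = 0.856 by edgeR without the block, with Benjamini-Hochberg adjustment). Of the 7 members it alone had every labeled library below both unlabeled ones, which held for 13.1% of all genes tested. The reverse, every labeled library above both, held for 0 members and for 8.2% of genes.

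The other log2 fold changes were -0.27 (SE 0.29) for *C1s1*, -0.24 (SE 0.29) for *C1ra*, -0.24 (SE 0.43) for *C4b*, -0.16 (SE 0.29) for *C3*, -0.067 (SE 0.42) for *Serping1* and 0.23 (SE 0.34) for *Ptx3*, with an adjusted p of 1.00 for each by edgeR. Their median with *Cfb* was -0.24, beside 0.018 over all genes, and 6 of 7 lay below 0 beside 48.3% of all genes. Apart from *Cfb*, the sign of each changed when 1 library was left out, as given in the closing section. Between libraries of the same number, labeled CPM lay below unlabeled in replicates 1 and 2 for every complement gene. For *Ptx3* it lay above in these replicates, but nothing states that a number marks a pair. The share of all genes with either pattern is not given here, so neither is read as a result about these genes. Some differences were small, such as 794 and 798 CPM for *C3* in replicate 2. With library totals only, as in these CPM, the median log2 fold change over all genes was -0.057. The difference of *Cfb* was larger than its SE and the spread between its libraries but did not pass the adjusted threshold.

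**Figure D5:**
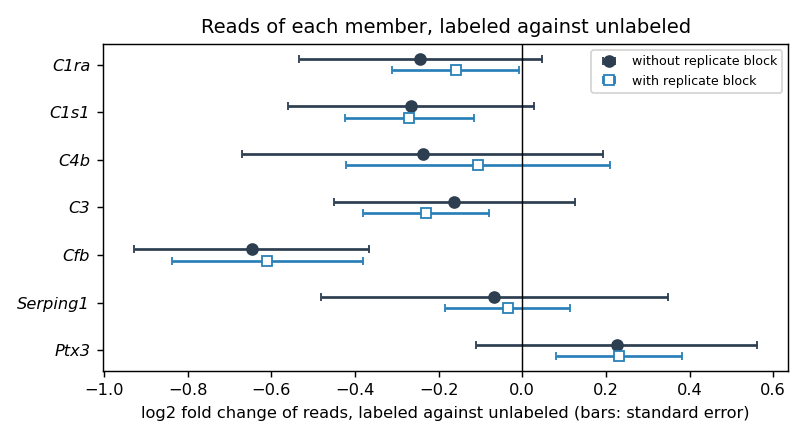
Log2 fold change of reads, labeled against unlabeled libraries (horizontal axis), with bars for the standard error, from edgeR without (filled circles) and with (open squares) the replicate number as a block. 6 of 7 genes lie left of 0 in both fits, and *Ptx3* lies right of it.

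The rest of the pathway was read from a list of 55 further complement genes, regulators, receptors and pentraxins, of which 54 were in the tables and 24 had reads in every library. For reads, 22 were tested, 14 had a log2 fold change below 0, beside 48.3% of all genes, none passed and the median was -0.18, beside 0.018 over all genes. For labeling, 22 of the 24 tested passed the beta-binomial test, beside 94.6% of all intervals, and some were covered as deeply as the 5 members above. *Colec12*, a collectin scavenger receptor, had 0.0216 ± 0.00329 (SD, n = 3), above 8.57% of the deeply covered genes. *Tnfaip6*, which encodes the hyaluronan-binding protein TSG-6, a matrix partner of PTX3, had 0.0446 ± 0.00467 (SD, n = 3), close to the rate of *Ptx3*, at a level of 63.8 CPM. *C1qbp*, which encodes a mainly mitochondrial protein named for its binding to C1q, had 0.0513 ± 0.00589 (SD, n = 3), above 99.3%.

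Some other genes of the list had few or no reads, and others had more. *Clu*, *Cd93*, *Cd59a*, *Cr1l*, *Cd55*, *C1rl* and *Cfi* had labeled means of 88.5, 86.3, 81.6, 54.0, 45.2, 39.0 and 27.8 CPM. These lay above the 18.5 CPM of the member *C4b*, as did *C1qa*, *C1qc* and *C3ar1* (19.9). The terminal components *C6*, *C8a*, *C8b*, *C8g*, *C9* and *Hc*, which encodes C5, lacked reads in at least 1 library each, and *C6* had none in any. *C7*, another terminal component, had 10, 23 and 5 labeled and 18 and 18 unlabeled reads. *C1qa*, *C1qb* and *C1qc*, the C1q chains that macrophages make, had labeled levels of 24.7, 16.8 and 26.1 CPM, beside the immune marker sums given above. *C2*, the other substrate of C1s, had 5, 12 and 3 labeled and 14 and 14 unlabeled reads. The receptor gene *C3ar1* had 26, 28 and 10 labeled and 42 and 30 unlabeled reads. The liver pentraxins *Apcs* and *Crp* had 0 reads in 2 and 4 of the 5 libraries.

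Genes whose relative levels over the 5 libraries ran most like those of a member were named by the root mean square distance of log2 levels, each centered on its mean, among 4845 genes. *Dbt* (0.030) and *Il1r1* (0.030) were nearest to *C1ra*, *Vps29* (0.034) and *Cdk1* (0.042) to *C1s1*, *Atp5j2* (0.048) and *Pofut1* (0.061) to *C3*, and *Irf2* (0.044) and *B3gnt2* (0.048) to *Ptx3*. *Tln1* (0.066) and *Supt5* (0.081) were nearest to *Serping1*, *Bmp6* (0.079) and *Usp34* (0.086) to *Cfb*, and *Nbeal1* (0.038) and *Tmem30a* (0.042) to *C4b*, which was compared with 4846 genes. No member was among the nearest of another, and with 5 points shared by all genes these distances are a description.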

How the data were processed

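SLAMseq libraries of CF were analysed, 3 labeled and 2 unlabeled, grouped by the submitters' labels. The authors ran SLAM-DUNK 0.4.3 against mm39, used umi-tools before mapping to take out the unique molecular identifiers and after it to drop duplicates, and counted over 3′ UTR intervals. They deposited, for each of 40428 distinct intervals, the raw counts of reads, converted reads, covered T and conversions. The rate they deposited is the fraction of covered T read as C. The deposited CPM divides by 1 number of reads per library, 7.58 to 28.9 times the reads counted on 1 interval per gene, so CPM relative to counted reads was computed as well.

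The interval with the highest mean deposited CPM in the labeled libraries stood for a gene, ties going to the longest. The members and the lists were chosen with earlier results of these data known. All members were named, other list genes by depth of at least 1000 covered T in every labeled library, and the 2 nearest profiles per member. The values of 1 list gene are not reported here. Genes picked outside this rule after seeing values were *C1qa*, *C1qb*, *C1qc*, *C2*, *C3ar1*, *C7* and those named for having few or no reads. *Clu*, *Cd93*, *Cd59a*, *Cr1l*, *Cd55*, *C1rl* and *Cfi* were also picked after seeing values.

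Conversions were tested per interval by a likelihood ratio in a beta-binomial model (Python 3.11.15, scipy 1.17.1). Its overdispersion was fitted for each interval on its own and was shared by the labeled and unlabeled libraries. Read counts were tested with edgeR 4.0.16 (TMM, filterByExpr, quasi-likelihood, R 4.3.3), with DESeq2 1.42.0 and a replicate block as alternatives. Conversion odds were also tested with limma 3.58.1 (pseudocount 0.5). The programs were tested on simulated data, where the beta-binomial test recovered changed intervals but called more unchanged ones than its threshold of 0.05 states. T content matched GRCm39 for 40380 of 40380 intervals on reference chromosomes. Copies were searched with BLAST 2.17.0 (e-value 1e-05). Binomial intervals are exact 95% intervals, limits for 0 are 3 counts over the covered T, and both cover counting error only. Within each group, every pair of libraries differed beyond sampling noise (chi-square per degree of freedom 2.04 to 16.6).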

Additional observations from a re-analysis of the deposited data

How the results depend on the processing

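Depth limits *C4b* and *Cfb*, whose rates rest on 3 and 11 labeled conversions, and labeled replicate 3, the shallowest library. Raised conversion was called for 18200 intervals, for 3154 where each library covered 1000 T or more and for 10641 with 1 interval per gene, since fewer intervals were then tested, and for 17056 to 18632 when 1 library was left out. edgeR called 0 genes higher and 0 lower in reads, 528 and 618 with the replicate block, and DESeq2 called 13 and 5, and the cause was not tested. With the replicate block *Cfb* had a log2 fold change of -0.61 (adjusted p = 0.0611 by edgeR), the lowest adjusted p of any member in any of 12 settings, and limma with the replicate block gave *Cfb* an adjusted p of 0.0277 for conversion. The deviations of labeled and unlabeled replicate 1 from their group means correlated at 0.827 over 7955 genes. With 2 unlabeled libraries, whose deviations mirror each other, the other correlations are not separate evidence of pairing, and nothing states what a number marks.

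With 1 library left out, the log2 fold change of reads ran from -0.47 (without unlabeled replicate 2) to 0.026 (without unlabeled replicate 1) for *C1ra*, from -0.55 (without unlabeled replicate 1) to 0.083 (without unlabeled replicate 2) for *C1s1*, from -0.33 (without labeled replicate 2) to 0.012 (without labeled replicate 1) for *C3*, from -0.51 (without unlabeled replicate 1) to 0.58 (without unlabeled replicate 2) for *Serping1*, which was 0.15 without labeled replicate 1, and from -0.094 (without unlabeled replicate 2) to 0.63 (without unlabeled replicate 1) for *Ptx3*. For *C4b* it turned to 0.18 without unlabeled replicate 1. In the other 76 alternatives of member fold changes the sign held. In the member conversion tests, 49 alternatives kept their side of the threshold, 4 lost the call of *C4b* and 4 gained that of *Cfb*. Summing over nested intervals counts the same reads more than once and gave deposited CPM of 103 for *C3*, 34.2 for *C1s1* and 8.55 for *Cfb*.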
